A study of Mus musculus with 14 samples.

Results

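The genes described here are 6 genes that direct the traffic of T cells through lymph nodes and tissues: Ccr7, S1pr1, S1pr4, Klf2, Klf3 and Cd69. They were chosen by symbol as homing, egress and retention genes with their KLF regulators, and all 6 were found among the 24091 genes of the deposited counts and passed the filter on low counts that left 12248 genes for testing. RNA was sequenced from T cells (200000 per sample) sorted from the spleen of mice with a model of chronic myelogenous leukemia (CML), with 1 library per mouse. The 8 CP CML (chronic phase) mice were Mir142+/+BCR-ABL and the 6 BC CML (blast crisis) mice were Mir142−/−BCR-ABL, and both groups were C57Bl/6j mice of 6 to 10 weeks in which BCR-ABL had been switched on for 3 weeks by withdrawal of tetracycline (tet-off). The transgene is driven from the SCLtTA transactivator in both groups, whereas the Mir142 deletion is in the germline and therefore in every cell type of the BC CML mice, not in T cells alone. The comparison is of Mir142 genotypes among BCR-ABL mice, and the mouse names of the groups begin with different numbers, so any difference between these series of mice cannot be told apart from genotype.

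Naive T cells enter lymph nodes from the blood with the help of adhesion molecules such as integrins and of CCR7, the receptor for the chemokines CCL19 and CCL21. They leave by following sphingosine-1-phosphate (S1P), which is abundant in blood and lymph, through the receptor S1PR1. The transcription factor KLF2 keeps S1pr1 expressed in resting T cells, and CD69, a surface protein induced by activation and carried by tissue-resident cells, binds S1PR1 and removes it from the cell surface.

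In T cells of BC CML mice the transcripts of both receptors that guide a T cell into and out of a lymph node, and of both KLF factors, were lower than in CP CML mice. Ccr7 stood at 0.48 of its CP CML level, S1pr1 at 0.62, Klf2 at 0.66 and Klf3 at 0.69, without overlap between the mice of the groups. S1pr4 was lower by a smaller step, to 0.85 of its CP CML level, and Cd69 was the 1 gene of the 6 that was higher, to 1.26 of it, and the mice of the groups overlapped for both. All 6 passed the threshold of an adjusted p-value of 0.05 in the quasi-likelihood test of edgeR, 5 lower and 1 higher, and the call of Cd69 was lost in 2 of 10 alternative fits (adjusted p = 0.524 and 0.0979). Of all tested genes 65.2% did so (32.7% lower and 32.6% higher), so that passing the threshold sets no gene apart here. The groups did not overlap for 4 of the 6 genes, all lower, whereas 17.6% of all tested genes were without overlap and lower and 19.3% without overlap and higher. The median log2 fold change (BC CML over CP CML) was −0.57 over the 6 genes and −0.01 over all tested genes.

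Libraries held 15703702 to 19914531 reads in CP CML (median 17186326) and 16145537 to 19399720 in BC CML (median 18746069.5), and levels are given as CPM, the counts scaled to library size, with TMM normalization. Mir142, the deleted gene, had 302 to 650 reads in the CP CML libraries and 0 in each BC CML library. Of 9 tested T cell markers 5 were higher and 1 lower in BC CML, and the summed CPM of Cd3d, Cd3e and Cd3g was 1181 ± 37.7 (SD, n = 8) in CP CML and 1400.1 ± 29.2 (n = 6) in BC CML. Markers of naive T cells summed to 4560.2 to 5672 CPM in CP CML and 2784 to 4016 CPM in BC CML, with 5 of 6 lower. Those of effector or memory T cells summed to 1185 to 1423 CPM and 2298 to 3146 CPM, with 9 of 10 higher. In bulk samples fewer cells of a type and less RNA per cell cannot be told apart, and this holds for each of the 6 genes. Markers of other cells were also higher in BC CML: the 10 myeloid markers summed to 86.1 to 460 CPM in CP CML and 563 to 1378 CPM in BC CML (8 higher), and the 6 B cell markers to 34.4 to 129 CPM and 65.2 to 360 CPM (5 higher). Among the erythroid and platelet markers 1 of 4 tested was higher, as was 1 of 3 basophil and mast cell markers, and of the endothelial markers Emcn had no read in any library and Pecam1, the 1 gene tested, did not pass the threshold. The part of these cells in the results was not tested. A myeloid score was added to the fit as a covariate, but the summed myeloid markers did not overlap between the groups. Score and genotype therefore cannot be told fully apart in that fit.

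MiR-142 is made as a pair of strands from the deleted locus on chromosome 11, and pairing of a microRNA with a transcript starts from the seed, bases 2 to 8. The mature sequences (RefSeq, GRCm38.p6) are shown because they are absent from the BC CML mice, with the seed in capitals.
miR-142a-5p: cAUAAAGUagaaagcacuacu
miR-142a-3p: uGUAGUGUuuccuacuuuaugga

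Matches to these seeds were sought in the longest 3′UTR of each gene in GENCODE vM21, as the 8mer ACTTTATA for miR-142a-5p, as the 8mer ACACTACA for miR-142a-3p, and as each 8mer without its last base (7mer-m8) or without its first base (7mer-A1). No 8mer was found in the 6 genes. The sites found are printed with the flanking bases, 5′ to 3′ on the gene's strand, with the match in capitals. They lie in mm10 at chr3:115711307-115711335 and chr3:115711049-115711077 (S1pr1, minus strand), chr6:129267987-129268015 (Cd69, minus strand) and chr5:64830863-64830891 (Klf3, plus strand).
S1pr1 7mer-A1 for miR-142a-5p: taccaccccttCTTTATAtcgtaactgcc
S1pr1 7mer-m8 for miR-142a-5p: taacgaagtctACTTTATttgaattatac
Cd69 7mer-m8 for miR-142a-5p: ctcatcaacgcACTTTATttttttttaaa
Klf3 7mer-m8 for miR-142a-3p: ctcaggatccaACACTACctgaactggga

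S1pr1 and Cd69 thus hold matches to the same strand of the microRNA while their transcripts differed in opposite directions between the groups. Ccr7, Klf2 and S1pr4 held no match of these kinds. Among the 11503 tested genes with a 3′UTR, 30.7% held a match to either strand, 23.5% to miR-142a-5p and 12.1% to miR-142a-3p. The Klf3 site lies beyond the end of the gene as listed with the counts. A match is a description of letters and no measure of binding.

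Ccr7 encodes the chemokine receptor that takes naive T cells and some memory T cells into lymph nodes, and lies on chromosome 11 from 99144199 to 99155077 (minus strand, mm10). Its level in CP CML was lowest at 264 CPM, with a median of 283 and a highest value of 332 CPM, and in BC CML lowest at 107 CPM, with a median of 137 and a highest value of 175 CPM. The groups did not overlap, the highest BC CML mouse being well below the lowest CP CML mouse. The mean fell from 290.0 ± 22.6 (SD, n = 8) to 140.4 ± 27.2 CPM (n = 6), a log2 fold change of −1.05 ± 0.10 (SE, adjusted p = 1.8e-07). Of all tested genes 12.2% had a larger log2 fold change in either direction.

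S1pr1, on chromosome 3 from 115710433 to 115715055 (minus strand), encodes the S1P receptor through which T cells leave lymphoid organs. CP CML mice ranged from 421 to 523 CPM with a median of 439, and BC CML mice from 230 to 320 CPM with a median of 287. The mice of the groups did not overlap. The means were 454 ± 37.1 CPM (n = 8) and 283 ± 30.9 CPM (n = 6), and the log2 fold change was −0.68 ± 0.07 (SE, adjusted p = 1.2e-07).

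S1pr4 encodes an S1P receptor found mainly on blood cells, and lies on chromosome 10 from 81497745 to 81500137 (minus strand). It ranged from 83.7 to 104.6 CPM in CP CML (median 93.7) and from 73.0 to 90.3 CPM in BC CML (median 79.1). The highest BC CML mouse, replicate 6, lay above the 2 lowest CP CML mice. The log2 fold change was −0.23 ± 0.05 (SE, adjusted p = 0.0012), and 55.9% of all tested genes had a larger one in either direction. It was −0.48 with libraries scaled to the summed CD3 reads and −0.37 with the myeloid score as a covariate.

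Klf2, on chromosome 8 from 72319062 to 72321654 (plus strand), encodes the KLF factor described above. Its CP CML mice lay between 213 and 245 CPM (median 225) and its BC CML mice between 135 and 175 CPM (median 147), without overlap. The means were 227 ± 10.99 CPM (n = 8) and 149 ± 14.6 CPM (n = 6), with a log2 fold change of −0.61 ± 0.05 (SE, adjusted p = 2.1e-08). Klf3, on chromosome 5 from 64803523 to 64830129 (plus strand), encodes a related factor that mostly represses transcription. It ranged from 211 to 255 CPM in CP CML (median 231) and from 141 to 171 CPM in BC CML (median 164), also without overlap. The means were 233 ± 13.2 CPM and 161 ± 11.3 CPM, and the log2 fold change was −0.53 ± 0.05 (SE, adjusted p = 3.2e-08). Klf3 overlaps a pair of other annotated genes that are absent from the counts table, of which 1 (Gm20033, by 595 bases) is antisense. The strand setting of the counting is not given in the sources used here.

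Cd69, on chromosome 6 from 129267325 to 129275369 (minus strand), encodes the activation and residency protein that opposes S1PR1. It ranged from 78.3 to 117 CPM in CP CML (median 95.7) and from 105 to 141 CPM in BC CML (median 124). The 4 higher BC CML mice lay above all CP CML mice and the other 2 lay among them. The means were 96.8 ± 16.4 CPM (n = 8) and 122 ± 13.99 CPM (n = 6), and the log2 fold change was 0.33 ± 0.11 (SE, adjusted p = 0.0116). This call was lost when libraries were scaled to the summed CD3 reads (log2 fold change 0.08, adjusted p = 0.524) and with the myeloid score as a covariate (0.42, adjusted p = 0.0979). Under the CD3 scaling the median log2 fold change of all tested genes was −0.25 and 25.4% of called genes were higher in BC CML, against 49.9% in the TMM fit, and Cd3g was itself higher in BC CML. The other 5 genes stayed lower and past the threshold in both fits.

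**Figure D1:**
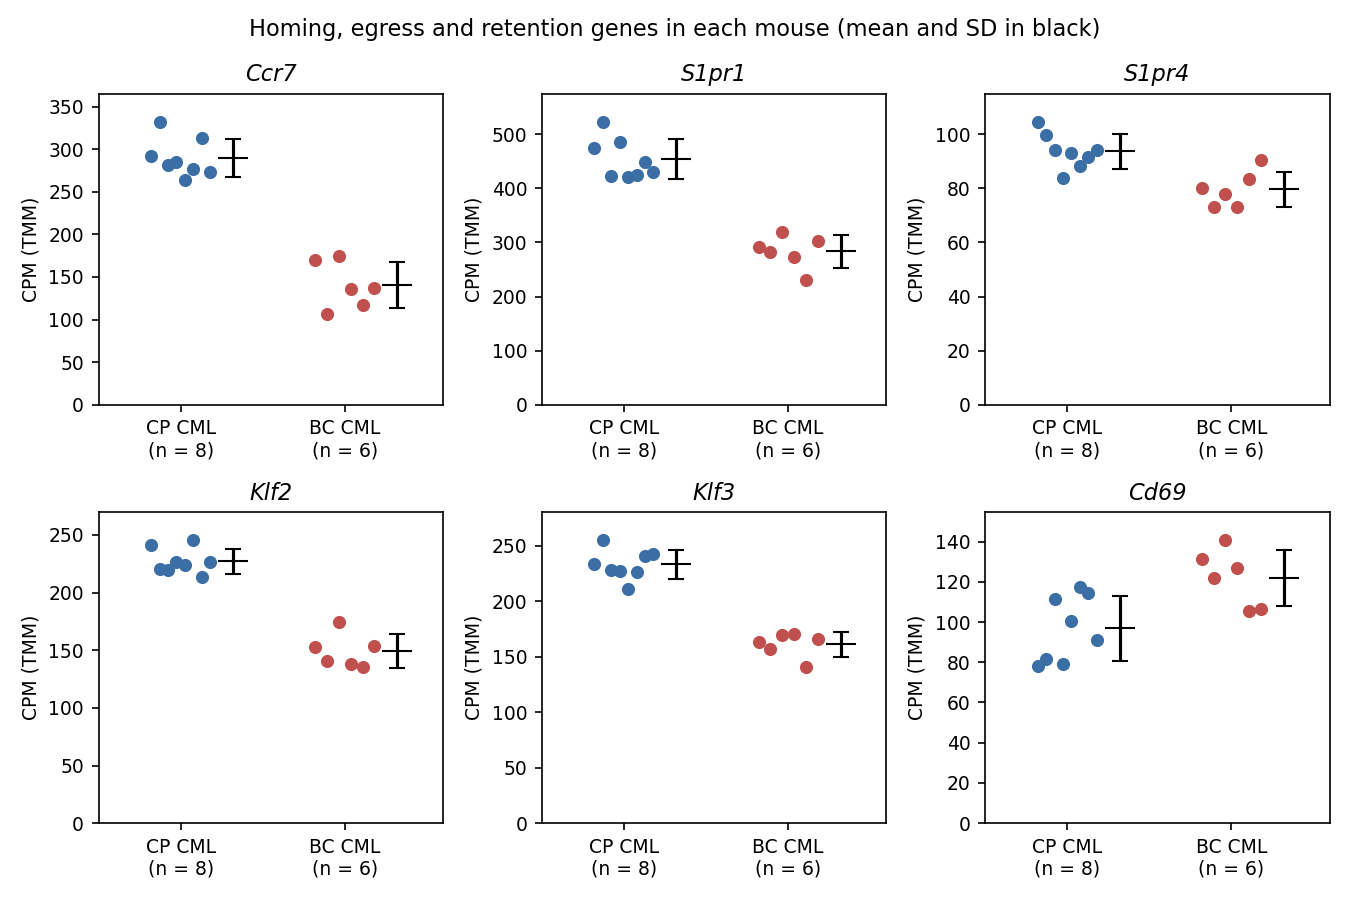
CPM (TMM) of the 6 genes in each mouse, with 1 point per mouse, CP CML (n = 8) in blue and BC CML (n = 6) in red, and the mean with its SD in black. For Ccr7, S1pr1, Klf2 and Klf3 all BC CML mice lie below all CP CML mice, and for S1pr4 and Cd69 the groups overlap.

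Levels of different genes were compared per length, as CPM per kilobase (RPKM) from the gene lengths listed with the counts. In CP CML the level was 149.9 ± 12.3 RPKM for S1pr1, 147.1 ± 11.4 for Ccr7 and 125.2 ± 6.06 for Klf2, and lower for Cd69 (59.9 ± 10.1), Klf3 (45.4 ± 2.57) and S1pr4 (39.2 ± 2.70; SD, n = 8 each). Neighbours in this order overlapped between mice, except that Klf2 lay above Cd69 in every comparison of mice. In BC CML the level was 93.7 ± 10.2 RPKM for S1pr1, 82.3 ± 8.04 for Klf2, 75.5 ± 8.66 for Cd69 and 71.2 ± 13.8 for Ccr7, and then 33.3 ± 2.74 for S1pr4 and 31.4 ± 2.20 for Klf3 (SD, n = 6 each). Only Ccr7 and S1pr4 did not overlap as neighbours. The range of Cd69 over mice lay below those of S1pr1, Ccr7 and Klf2 in CP CML and overlapped with all of these in BC CML. Within every BC CML mouse S1pr1 still lay above Cd69, and so did Klf2 in all but replicate 4.

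A ratio of genes within a library does not depend on how libraries are scaled. The ratio of S1pr1 to Cd69 reads was 3.62 to 6.39 in CP CML (median 4.45) and 2.16 to 2.85 in BC CML (median 2.25). No BC CML mouse reached the lowest CP CML mouse. The mean log2 ratio differed by −1.03 (exact two-sided permutation test, p = 0.000333, the smallest that the 3003 splits of 14 mice into 6 and 8 can give, adjusted over the 2 ratios 0.000666). The ratio of Klf2 to Klf3 reads was 0.86 to 1.08 in CP CML (median 0.98) and 0.81 to 1.03 in BC CML (median 0.93). These overlapped, with a mean log2 difference of −0.08 (exact permutation test, p = 0.258, and adjusted 0.258), so that both KLF genes were lower by a similar step and a difference between them was not detected.

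Within the groups the relations of Klf2, S1pr1 and Cd69 were computed on log2 CPM, since the groups form separate clusters. Among the 6 BC CML mice S1pr1 followed Klf2 in rank (Spearman rho = 1.0, exact permutation p = 0.0028, adjusted over the 6 relations 0.0167; Pearson r = 0.83, exact permutation p = 0.0486, adjusted 0.146), and r was 0.91 without the 2 mice farthest from the median of Klf2. Among the 8 CP CML mice it did not (r = −0.11, exact permutation p = 0.813; rho = 0.07, exact permutation p = 0.882). S1pr1 and Cd69 had r = −0.74 in CP CML (exact permutation p = 0.0425, adjusted 0.146; rho = −0.62, exact permutation p = 0.115) and −0.62 without the 2 mice farthest from the median of S1pr1. In BC CML r was 0.59 (exact permutation p = 0.219; rho = 0.60, exact permutation p = 0.242), and −0.67 without 2 such mice, so its sign rests on them. For Klf2 and Cd69 r was −0.13 in CP CML (exact permutation p = 0.725; rho = −0.26) and 0.58 in BC CML (exact permutation p = 0.208; rho = 0.60), and −0.66 and −0.35 without 2 such mice. No Pearson correlation passed the threshold after adjustment, and the differences between groups in these relations were not tested.

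**Figure D2:**
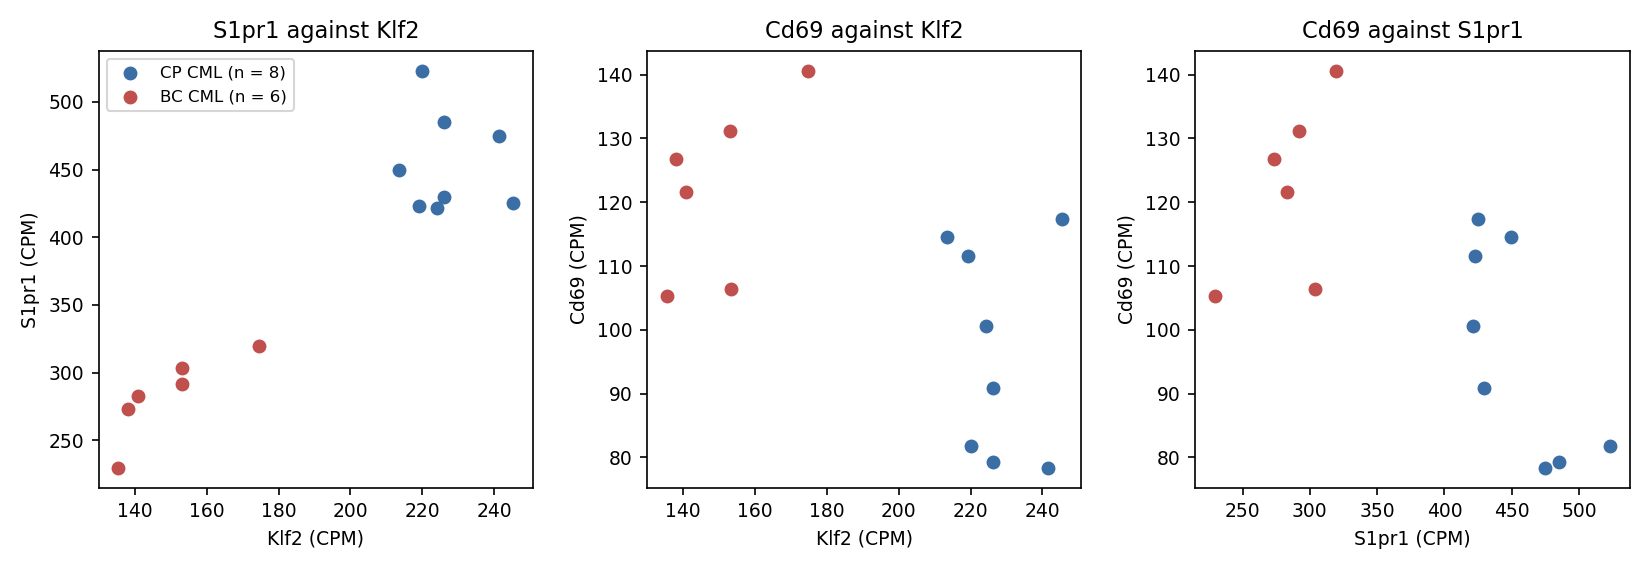
CPM of S1pr1 against Klf2 (left), Cd69 against Klf2 (middle) and Cd69 against S1pr1 (right), with 1 point per mouse, CP CML (n = 8) in blue and BC CML (n = 6) in red. The groups lie apart in each panel, and S1pr1 is higher where Klf2 is higher among the BC CML mice.

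Over all 14 mice, each taken as its deviation from its group mean, S1pr1 and Klf3 had r = 0.74, Ccr7 and S1pr1 0.64, Ccr7 and Klf3 0.63, Ccr7 and Klf2 0.54 and S1pr1 and Klf2 0.51, and S1pr4 and Cd69 had r = −0.42. Among the 9160 genes with an average log2 CPM of at least 3, those most like Ccr7 in this measure were Scml4 (r = 0.91), Fbxo8 (0.89) and Gpn3 (0.88). For S1pr1 they were Xpc (0.83), Bloc1s3 (0.79) and Nrde2 (0.78), for S1pr4 Rnf185 (0.90), Zswim4 (0.90) and Atg101 (0.87), and for Klf2 Dym (0.83), Aaed1 (0.82) and Kcnc1 (0.79). Klf3 was most like Fbxl20 (0.94), Mrm1 (0.88) and Calcoco1 (0.87), and Cd69 most like Ppp5c (0.88), Gpat4 (0.88) and Kctd6 (0.84). These are descriptions over libraries that share depth and scaling.

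The counts of the lists that follow are to be read beside all tested genes, of which 32.7% were lower and 32.6% higher in BC CML. Under the CD3 scaling, which moved the median of all tested genes to −0.25, 6961 of the 12248 were lower and 2374 higher, so a list median that moves by about this step follows the scaling. Of 9 tested genes of lymph node entry 2 were lower and 6 higher in BC CML. Icam2, an integrin ligand, fell by 0.60 on the log2 scale. The integrin genes Itgb1 and Itgb7 rose by 0.77 and 0.71, and Selplg, the gene of the adhesion ligand PSGL-1, rose by 0.29, a call lost under the CD3 scaling (0.04, adjusted p = 0.346). The median over the list was 0.35, and 0.11 with 2 genes higher and 3 lower under the CD3 scaling.

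Of 15 tested genes of CCR7 and S1P receptor signalling and desensitization 7 were lower and 5 higher (32.7% and 32.6% of all tested genes), with a median log2 fold change of −0.07, and 10 were lower and 3 higher under the CD3 scaling, with a median of −0.31. Coro1a, the gene of an actin regulator that naive T cells need to leave lymphoid organs, fell by 0.31 and Grk6, a kinase that desensitizes chemokine receptors, by 0.58. Arrb2, which encodes an arrestin that ends receptor signalling, rose by 0.51, P2ry10, a lysophospholipid receptor gene, by 0.73 and Rgs1, which encodes a brake on G protein signalling, by 0.80. Gnai2, the G protein subunit that chemokine receptors signal through, had a log2 fold change of −0.07 (adjusted p = 0.115), and of −0.31 under the CD3 scaling (adjusted p = 9.5e-07). Rgs1 lost its call with the myeloid score as a covariate (0.54, adjusted p = 0.120).

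Among 10 tested genes of the other S1P receptors and of S1P metabolism 3 were higher, 1 was lower and 6 did not pass the threshold, with a median log2 fold change of 0.03. Under the CD3 scaling 1 was higher and 4 lower with a median of −0.22, a step like that of all tested genes, and S1pr5 and Plpp2 lost their calls at log2 fold changes of 0.70 and 0.42 (adjusted p = 0.0658 and 0.105). S1pr3 rose from 5 to 16 reads per library in CP CML to 13 to 62 in BC CML (log2 fold change 1.88), S1pr5, an S1P receptor of NK cells and some effector T cells, from 10 to 44 reads to 16 to 80 (0.94), and the lipid phosphatase gene Plpp2 rose by 0.67. All 3 were low, and once the myeloid score was in the fit their log2 fold changes were 0.44, 0.54 and 0.05 (adjusted p = 0.563, 0.537 and 0.936). Sgpp1, an S1P phosphatase gene, fell by 0.11, a call lost with the myeloid score (−0.07, adjusted p = 0.525). It was also lost under the likelihood ratio test, in which no gene of this list was lower. Sgpl1, which encodes the lyase that breaks S1P down, had a log2 fold change of −0.06 (adjusted p = 0.134), and of −0.31 under the CD3 scaling (adjusted p = 1.1e-06). Sphk1, an S1P-producing kinase gene, had at most 2 reads in any library and was not tested.

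The rest of the KLF family moved in both directions, with 5 of 10 tested genes higher and 4 lower (Klf7, Klf11, Klf13 and Klf16), beside 32.6% and 32.7% of all tested genes. The median log2 fold change was 0.23, and −0.02 with 4 genes higher and 5 lower under the CD3 scaling. Klf12 rose from 2.39 ± 0.45 CPM (n = 8) to 30.9 ± 3.34 CPM (n = 6), a log2 fold change of 3.69 ± 0.11 (SE, adjusted p = 9.2e-15), without overlap. Klf9 rose by 1.95, Klf8 by 0.89, Klf4 by 0.79 and Klf10 by 0.55. Klf13 fell by 0.22, and Klf6 had a log2 fold change of −0.09 (adjusted p = 0.487), and of −0.34 under the CD3 scaling (adjusted p = 0.012), under which Klf4 lost its call (0.55, adjusted p = 0.0653). With the myeloid score as a covariate the higher Klf4 and Klf10 no longer passed the threshold, at log2 fold changes of 0.56 and 0.18 (adjusted p = 0.408 and 0.443). Nor did the lower Klf7, Klf11 and Klf13, at −0.11, −0.97 and −0.17 (adjusted p = 0.429, 0.0713 and 0.216). Klf12 was at 3.73 in that fit.

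Transcription of Klf2 is known to be driven by FOXO1 in T cells and by the kinase cascade MAP3K3, MAP2K5 and MAPK7 (ERK5) acting on MEF2 factors. Of the 9 genes listed for these inputs 2 were lower and 3 higher (32.7% and 32.6% of all tested genes), with a median log2 fold change of 0.06, and 6 were lower and 3 higher under the CD3 scaling, with a median of −0.19. Map3k3 fell from 138 ± 7.07 CPM (n = 8) to 81.6 ± 2.36 CPM (n = 6), a log2 fold change of −0.76 ± 0.04 (SE, adjusted p = 1.8e-11), without overlap. Foxo4 rose by 0.76 and Mef2a by 0.53. Mef2c, which B cells and myeloid cells also express, rose from 5.17 ± 2.51 CPM to 60.4 ± 14.7 CPM (log2 fold change 3.56, and 2.43 with the myeloid score as a covariate). Foxo1 had a log2 fold change of −0.05 (adjusted p = 0.327), and of −0.30 under the CD3 scaling (adjusted p = 6.5e-06).

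The promoters of the KLF genes (RefSeq, GRCm38.p6) are shown because both genes were lower without overlap and KLF and MEF2 factors bind known motifs. They are the 250 bases before the start, at chr8:72318812-72319061 for Klf2 and chr5:64803271-64803520 for Klf3, both on the plus strand. The capitals mark the KLF motif CACCC on either strand (GGGTG on the other) and the MEF2 motif, which reads the same on both strands.
Klf2 promoter: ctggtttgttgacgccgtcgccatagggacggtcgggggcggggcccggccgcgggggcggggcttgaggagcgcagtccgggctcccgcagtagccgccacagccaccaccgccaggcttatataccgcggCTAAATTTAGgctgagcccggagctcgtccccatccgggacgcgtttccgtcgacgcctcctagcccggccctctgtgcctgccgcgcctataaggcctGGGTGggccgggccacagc
Klf3 promoter: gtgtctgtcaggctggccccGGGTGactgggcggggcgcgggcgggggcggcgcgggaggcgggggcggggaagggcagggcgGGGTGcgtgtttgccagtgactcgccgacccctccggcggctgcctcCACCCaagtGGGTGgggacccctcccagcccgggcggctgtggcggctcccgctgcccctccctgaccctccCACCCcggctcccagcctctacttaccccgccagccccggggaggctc

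The Klf2 promoter held 1 CACCC and 1 MEF2 motif, the Klf3 promoter 5 CACCC and no MEF2 motif, and the S1pr4 promoter 1 CACCC. Of 32851 promoters of this length 52.0% held at least 1 CACCC, 0.667% at least 5, and 0.508% a MEF2 motif. The Klf3 promoter had a GC content of 78.4%, against a median of 52.4% over all promoters, and motifs rich in G and C are more frequent in such sequence. The FOXO motif GTAAACA, sought on both strands and found in 3.17% of promoters, was in none of the 3. The MEF2 motif was searched after the Klf2 promoter had been seen.

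Of 9 tested genes of tissue retention other than Cd69, 7 were higher and 1 lower in BC CML (32.6% and 32.7% of all tested genes), with a median log2 fold change of 0.45, and of 0.21 with 4 genes higher and 1 lower under the CD3 scaling. Cdh1, the gene of E-cadherin, rose by 3.27 (2.38 with the myeloid score as a covariate), Itga1, an integrin gene of tissue-resident T cells, by 2.02, and Ahr, which encodes a receptor that such cells need in skin and gut, by 1.56. Itgae, the gene of CD103, rose by 0.36, a call that was lost under the CD3 scaling (0.11, adjusted p = 0.273) and with the myeloid score (0.37, adjusted p = 0.0546). Prdm1, which encodes a factor of effector and resident cells, fell by 0.88, and by 0.52 with the myeloid score. Across the 6 lists, with 9, 15, 10, 10, 9 and 9 tested genes, 46 genes passed the threshold, as did 65.2% of all tested genes.

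**Figure D3:**
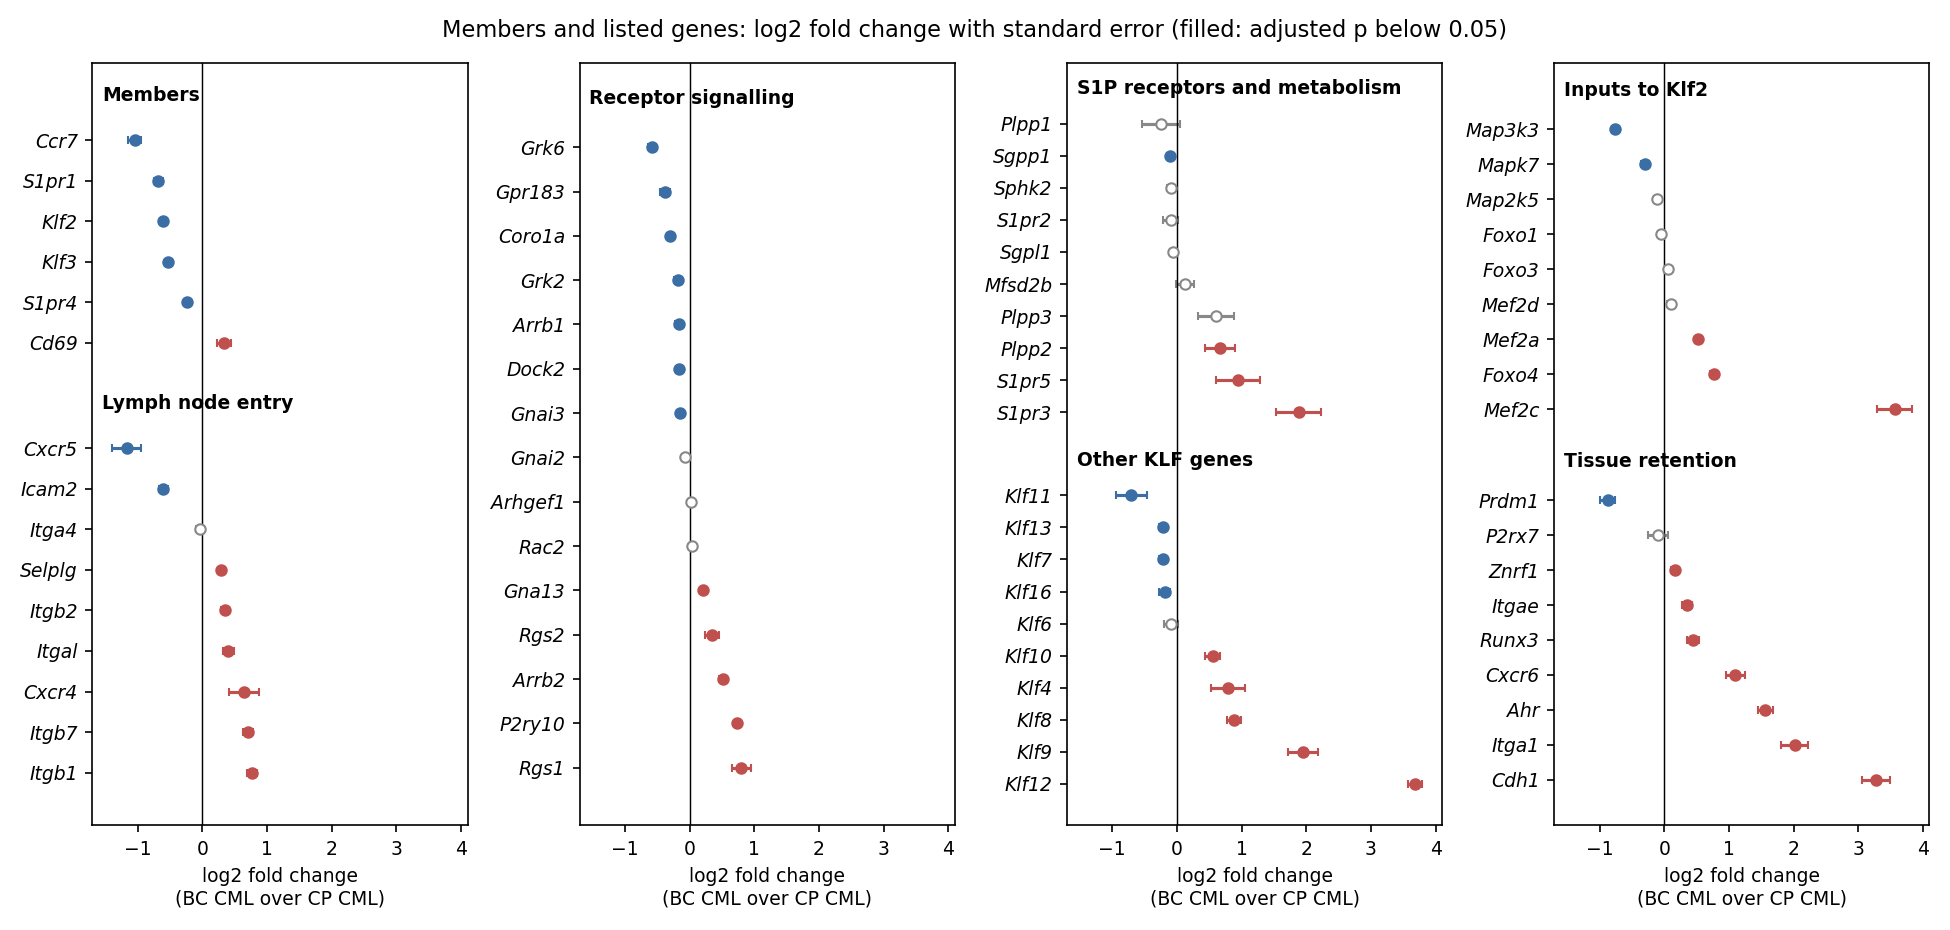
Log2 fold change (BC CML over CP CML) with its SE for the 6 genes and for each tested gene of the 6 lists, with filled points past the adjusted threshold of 0.05 (red higher, blue lower) and open points not past it. The 6 genes lie between −1.05 and 0.33, and Klf12, Mef2c and Cdh1 lie above 3.

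**Figure D4:**
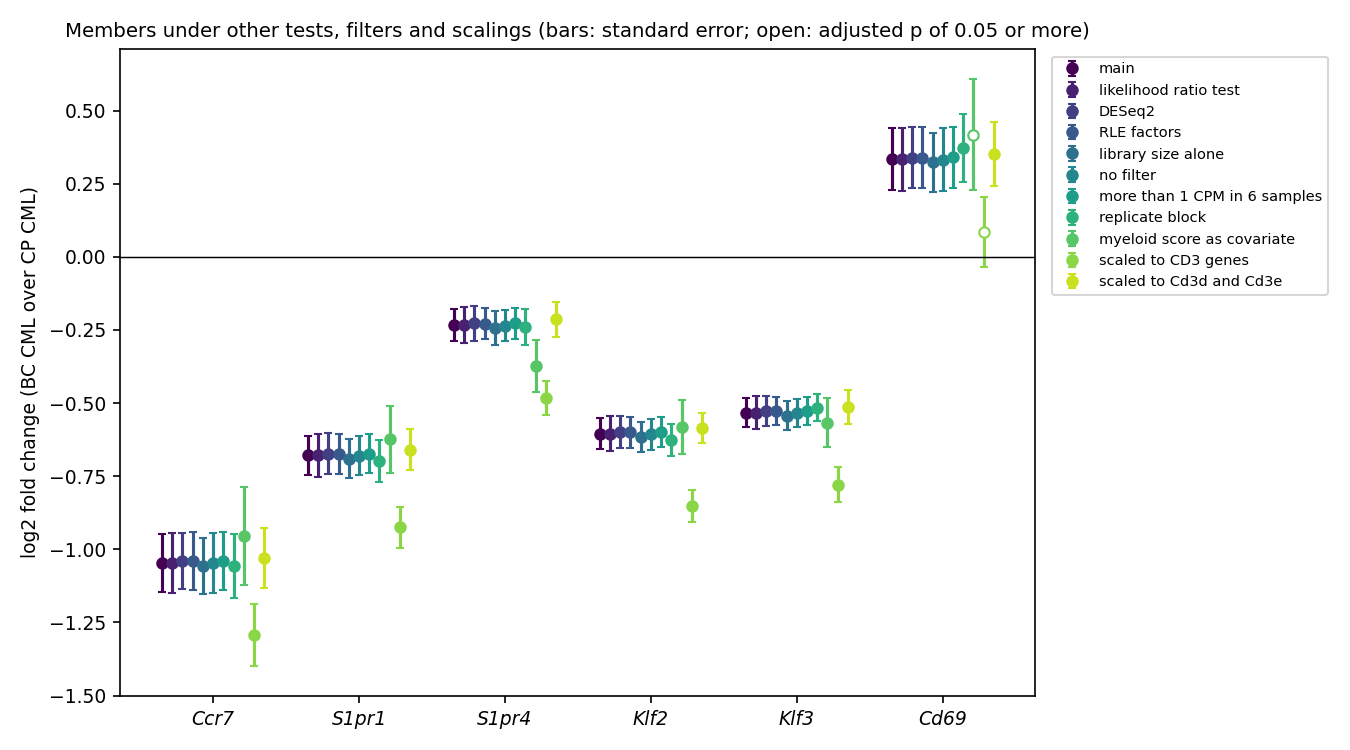
Log2 fold change (BC CML over CP CML) of the 6 genes under the TMM quasi-likelihood fit (main) and 10 other tests, filters, scalings and covariates (the scaling to Cd3d and Cd3e was chosen after seeing the data), with the SE as bars and open points where the adjusted p was 0.05 or more. Ccr7, S1pr1, S1pr4, Klf2 and Klf3 are below 0 and filled throughout, and Cd69 is open with the CD3 scaling and the myeloid covariate.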

How the data were processed

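Bulk RNA-seq of spleen T cells from 8 CP CML and 6 BC CML mice was used. Per the labels and methods, the authors trimmed reads (Trimmomatic for adapters, FASTP for polyA), aligned them to mm10 with STAR 2.6.0 and deposited raw counts per gene from HTSeq 0.11.1 with gene positions and lengths, not normalized. The annotation and strand setting of the counting are not given in the sources used here. The submitters' processing notes also list hg19.

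Counts were fitted with edgeR 4.0.16 in R 4.3.3 (filterByExpr, TMM, quasi-likelihood test, Benjamini-Hochberg adjustment over all tested genes at 0.05). CPM are from TMM-scaled libraries, and log2 CPM used a prior count of 2. Ratios used counts plus 0.5 and, like relations, exact permutation tests. Other fits used DESeq2 1.42.0, edgeR's likelihood ratio test, scaling by RLE, by library size or by CD3 reads, filters on low counts, the replicate number as a block, a myeloid score, and each mouse left out. Scaling to Cd3d and Cd3e, and the myeloid score for the lists, were added after seeing the data. The block pairs no mice: same-numbered mice are different animals, and 2 of 6 pairs had a correlation of deviations over 0.1. No libraries agreed within sampling noise.

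The 6 genes, lists and tests were chosen with earlier results of these data known. Named were the 6 genes, up to 4 genes of lowest p per list with 10 genes always named if tested, and the 3 most alike genes. Outside this rule, Klf7, Klf11 and Klf16 are named so that all lower KLF genes are given, and Sphk1 is named as not tested. Markers and Mir142 are named where a result turns on them. One listed gene is not reported here, and the list counts leave it out. Tested on simulated counts for BC CML against CP CML (12185 genes, 200 given a log2 fold change of 1), this test found 178 of those with 13 other calls. That setting changed few genes, evenly up and down, whereas 65.2% of all tested genes were called here. All of the 6 genes but Ccr7 also differed by less than a log2 fold change of 1, so these rates do not carry over to them. The sources used here do not say whether mice of a group shared a litter or a day. The p-values measure the spread between these mice and cannot separate genotype from the series of mice.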

Additional observations from a re-analysis of the deposited data

Results flagged for a closer look

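Each group of mice was checked for a mouse far from the others in the 6 genes, both ratios and the total reads, 18 sets of values in all, of which chance marks about 1 in 20. In the ratio of S1pr1 to Cd69 the highest BC CML mouse, replicate 6, had a log2 ratio of 1.51 and the next 1.22, a gap of 0.728 of the group's range. Without it the mean log2 ratio differed between the groups by −1.09. In total reads the lowest BC CML library, replicate 2, held 16145537 reads and the next 18319039, a gap of 0.668 of the range. The part of depth in the results was not tested beyond leaving this library out, which changed no call of the 6 genes.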

How the results depend on the processing

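Ccr7, S1pr1, S1pr4, Klf2 and Klf3 kept their direction and their call under all 10 alternatives and with each mouse left out. Their log2 fold changes over the alternatives were −1.29 to −0.96, −0.93 to −0.62, −0.48 to −0.21, −0.85 to −0.58 and −0.78 to −0.51. Cd69 was 0.08 to 0.42 over the alternatives and past the threshold in 8 of 10, of which the scaling to Cd3d and Cd3e was chosen after seeing that Cd3g was higher. It was not past it when scaled to CD3 genes (0.0847, adjusted p = 0.524, a scaling that moves the median of all tested genes to −0.25) or with the myeloid score as a covariate (0.418, adjusted p = 0.0979), for which the cause was not tested. With each mouse left out it was 0.29 to 0.38 (highest adjusted p = 0.0319). The myeloid score lowered the genes called from 7986 to 4883 and those of the lists from 46 to 30. This score goes along with genotype, since the summed myeloid markers did not overlap between the groups. The SE of Ccr7 was 0.167 in that fit, against 0.0995 in the main fit. A call can thus be lost without a smaller difference, as for Cd69 (0.42, against 0.33 in the main fit). The replicate block rests on shared numbers only (mean correlation of deviations −0.0459) and leaves out CP CML replicates 7 and 8, which have no partner. It gave −1.06 for Ccr7, 0.37 for Cd69 (adjusted p = 0.0216) and 7280 of 12175 genes called, and changed no call of the 6 genes. The log2 ratio of S1pr1 to Cd69 differed by −1.07 in these pairs (exact permutation p = 0.0312, the smallest that 6 pairs can give, not adjusted over both ratios). Low counts limit S1pr3, S1pr5 and Plpp2.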
